A study of Mus musculus with 17 samples.

Results

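The 9 genes described here carry glucose into the β cell, set the first step of its use, or respond to it: the transporters *Slc2a2*, *Slc2a1* and *Slc2a3*, the enzymes *Hk2* and *G6pc2*, the transcription factor gene *Mlxipl*, which encodes ChREBP, and its targets *Txnip*, *Arrdc4* and *Pklr*. They were chosen by name and looked up by gene identifier, and all 9 were found among the 78239 rows of one count table and the 73212 rows of the other. Each passed the filter on low counts in both tables, where 19137 and 20167 genes were tested. Bulk RNA-seq of pancreatic islets from male mice, with 17 samples in 6 groups, was analysed. Each sample is labelled as a biological replicate and is counted here as a mouse. Whether islets of several mice were pooled for a sample is not stated. Wildtype mice (labelled Pax4 WT) and mice homozygous for the R200H knock-in of *Pax4*, the counterpart of human R192H (labelled Pax4 HH, *Pax4* R192H below), were littermates of C57BL6/N background, with 3 mice per genotype and diet. The SCD groups were 12 weeks old and ate standard chow, and the HFD groups were 16 weeks old after 4 weeks of a high-fat diet, so that diet and age changed together. In the second table, 3 *Pax4* βiKO mice (labelled Pax4-BiKO), homozygous for floxed *Pax4* with the tamoxifen-inducible *Pdx1-Cre*ERT2, were compared with 2 mice labelled Control, which carried the same floxed alleles without Cre. Tamoxifen was given to both between weeks 7 and 9, the HFD began in week 12 and lasted 8 weeks, and the mice were 20 weeks old. Cre and the loss of *Pax4* therefore changed together, and *Pdx1* also drives expression outside β cells, in some δ cells of the adult islet. *Pax4* had 0 counts in each of the 17 mice and gave no check of the genotype labels.

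A rodent β cell takes up glucose mainly through GLUT2, the low-affinity transporter encoded by *Slc2a2*, and phosphorylates it at a rate that follows the glucose concentration. The high-affinity transporters GLUT1 (*Slc2a1*) and GLUT3 (*Slc2a3*) and the high-affinity hexokinase 2 (*Hk2*) are kept low in mature β cells, and G6PC2, an islet glucose-6-phosphatase, works against this phosphorylation. Phosphorylated sugars activate ChREBP, which binds carbohydrate response elements together with its partner MLX. Its targets include *Txnip* and *Arrdc4*, which encode α-arrestins that remove glucose transporters from the cell surface, and *Pklr*, which encodes liver-type pyruvate kinase.

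Promoter sequences are shown first because a carbohydrate response element has a known layout, a pair of E-box-like sites with 5 bases between them. Windows of 300 bases around the RefSeq transcription start (GRCm38.p6) were available for 8 of the 9 genes, and 3 motifs were searched on both strands: the E-box CACGTG, its looser form CACGNG, and a paired layout of 2 CNCGNG sites with any 5 bases between them. The first is a special case of the second, and both are special cases of a single CNCGNG site. CACGTG was in a window of 2 of the 8 genes (*Mlxipl* and *Arrdc4*), CACGNG in 4 (*Mlxipl*, *Txnip*, *Arrdc4* and *Pklr*) and the paired layout in 2 (*Txnip* and *Pklr*). Of all 27025 genes with a window, 8.09% held CACGTG, 30.3% held CACGNG and 1.58% held the paired layout. The windows of these 4 genes follow, each 5′ to 3′ on the strand of its gene, with the paired layout or CACGTG in capitals. *Mlxipl* and *Pklr* each had a window at another start, in which none of the 3 motifs was found and which is not printed. The window of *Slc2a2*, in which none of the 3 motifs was found, is shown for comparison.
*Txnip*, chr3:96557707-96558006, plus strand, paired layout from -85 to -69 relative to the start: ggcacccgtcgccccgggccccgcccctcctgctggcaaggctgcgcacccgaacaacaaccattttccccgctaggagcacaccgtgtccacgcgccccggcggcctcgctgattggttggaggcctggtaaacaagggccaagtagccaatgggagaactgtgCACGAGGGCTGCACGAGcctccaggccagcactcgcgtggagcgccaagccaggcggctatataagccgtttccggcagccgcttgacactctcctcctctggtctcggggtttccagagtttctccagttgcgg
*Pklr*, chr3:89136373-89136672, plus strand, paired layout from -170 to -154 relative to the start: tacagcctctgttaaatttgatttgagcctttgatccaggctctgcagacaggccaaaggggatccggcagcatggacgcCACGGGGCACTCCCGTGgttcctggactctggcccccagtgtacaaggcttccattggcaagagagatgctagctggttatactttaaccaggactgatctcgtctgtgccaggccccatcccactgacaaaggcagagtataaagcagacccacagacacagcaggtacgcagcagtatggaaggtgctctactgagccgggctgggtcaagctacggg
*Arrdc4*, chr7:68749189-68749488, minus strand, CACGTG from -193 to -188 relative to the start: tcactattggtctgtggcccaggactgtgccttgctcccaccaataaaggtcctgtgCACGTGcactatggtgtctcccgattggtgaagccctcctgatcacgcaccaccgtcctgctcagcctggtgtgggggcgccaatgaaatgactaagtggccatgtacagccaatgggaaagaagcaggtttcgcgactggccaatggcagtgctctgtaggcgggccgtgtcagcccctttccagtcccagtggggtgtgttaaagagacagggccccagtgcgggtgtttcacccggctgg
*Mlxipl*, chr5:135089640-135089939, plus strand, CACGTG from -98 to -93 relative to the start: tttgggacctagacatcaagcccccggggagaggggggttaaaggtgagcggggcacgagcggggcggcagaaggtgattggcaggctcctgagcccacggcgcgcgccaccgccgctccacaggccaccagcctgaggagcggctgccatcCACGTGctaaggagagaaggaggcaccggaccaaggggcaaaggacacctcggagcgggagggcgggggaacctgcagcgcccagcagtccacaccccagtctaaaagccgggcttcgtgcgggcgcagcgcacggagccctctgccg
*Slc2a2*, chr3:28697653-28697952, plus strand: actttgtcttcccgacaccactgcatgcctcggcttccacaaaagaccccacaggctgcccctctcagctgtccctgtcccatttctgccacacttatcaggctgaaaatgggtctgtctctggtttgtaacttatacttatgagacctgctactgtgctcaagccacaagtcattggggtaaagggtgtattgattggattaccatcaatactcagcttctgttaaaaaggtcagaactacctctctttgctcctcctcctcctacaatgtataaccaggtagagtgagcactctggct
In the *Txnip* window the paired layout reads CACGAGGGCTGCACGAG, with CACGAG on both sides of the gap, and in the *Pklr* window it reads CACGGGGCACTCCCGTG, with CACGGG on one side and its reverse complement on the other. These are matches of letters in a reference genome and not measurements of binding.

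Total counts per mouse ranged from 24268157 to 42679645 in the wildtype and *Pax4* R192H table, called the first here, and from 28618835 to 31887537 in the other. A pair of rows that the annotation used here does not name held 36.2% to 53.3% of each library of the first table, and 5.40% to 6.49% in the other. Levels are in CPM, counts scaled to the TMM-normalized library size, and the tables were normalized separately, so levels are compared only within a table. A gene was called when its Benjamini-Hochberg adjusted p-value in edgeR's quasi-likelihood test was below 0.05 and its absolute log2 fold change above 0.5. Islet markers were plentiful, with summed levels of the 18 β cell markers between 46142 and 112281 CPM in the first table and between 123707 and 140457 CPM in the second. The deposited counts of *Txnip* and *Pklr* were not whole in any of the 17 mice, as happens where RSEM divides reads that match more than 1 gene, and how many of their reads this touches is not known from the files.

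**Figure D1:**
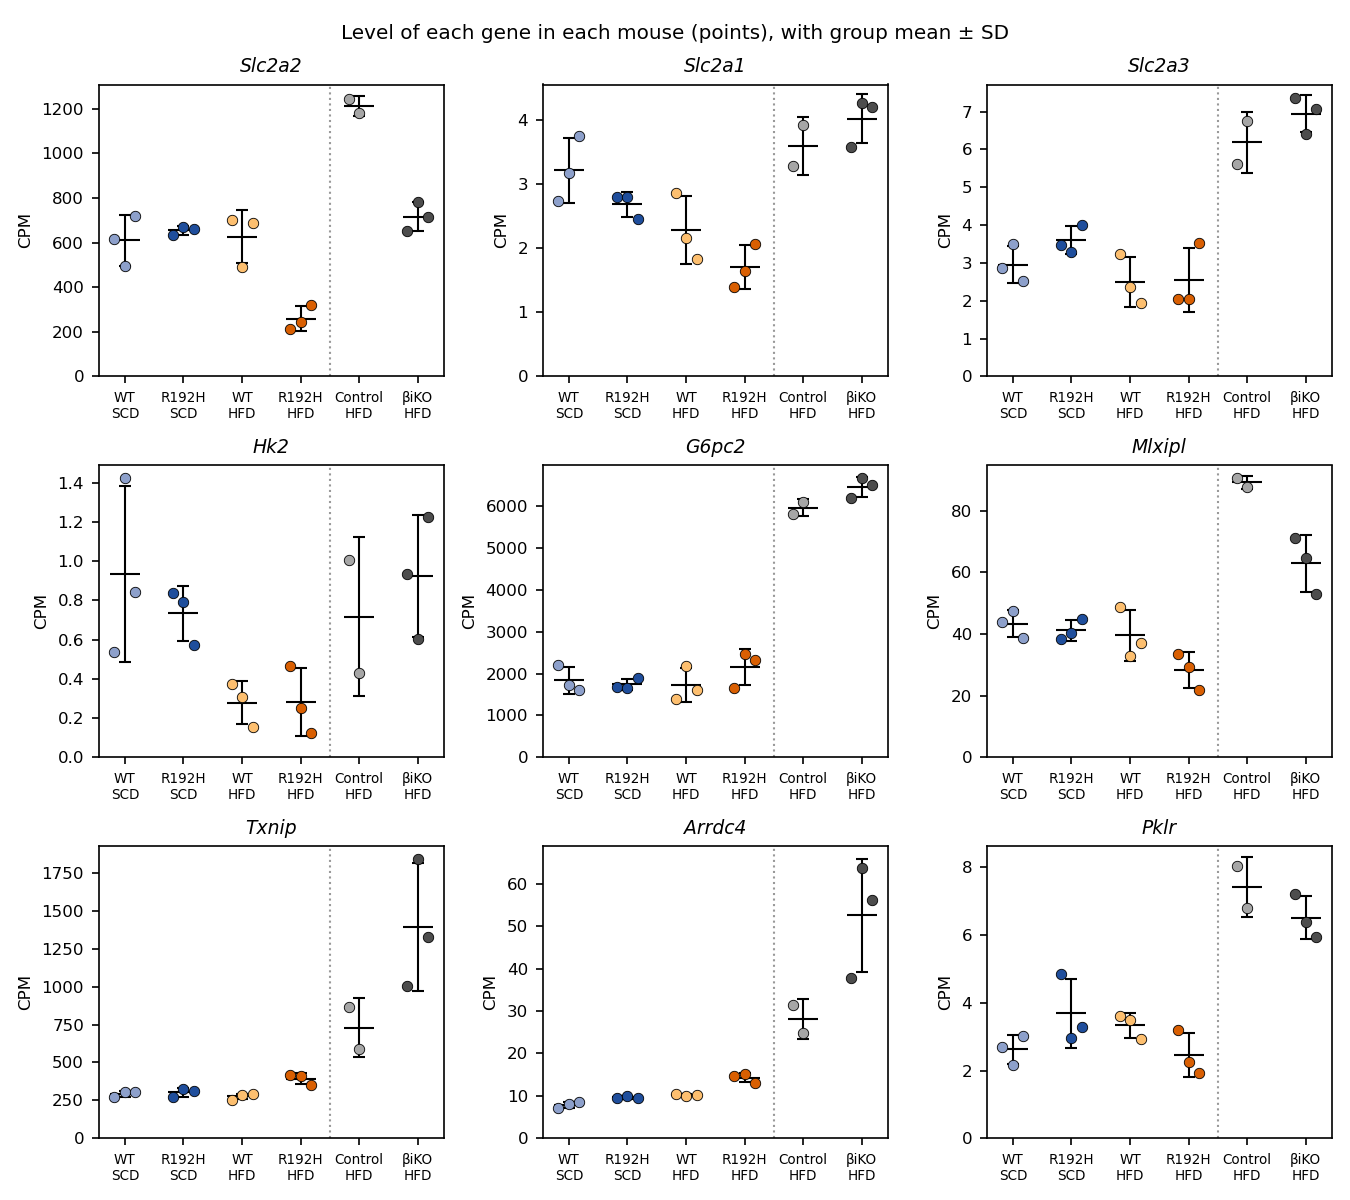
Level of each of the 9 genes in CPM (vertical axes, linear, from 0) in each mouse (points) of the 6 groups, with group mean and SD (black bars); the dotted line separates the tables, which were normalized separately. *Slc2a2* lay between 212 and 319 CPM in the HFD-fed *Pax4* R192H group and at 489 CPM or above in the other 9 mice of that table, and *Txnip* and *Arrdc4* were highest in the same 3 mice.

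*Slc2a2* (ENSMUSG00000027690, chromosome 3, 28697903 to 28731359 in GRCm38, plus strand) was the gene of the 9 that differed most between genotypes on the HFD. SCD-fed wildtype mice had 618, 493 and 720 CPM, SCD-fed *Pax4* R192H mice 632, 669 and 662 CPM, and HFD-fed wildtype mice 701, 489 and 688 CPM. HFD-fed *Pax4* R192H mice had 212, 243 and 319 CPM. These 3 mice were below all other mice of the table, while the other 3 groups overlapped. On the HFD the level in *Pax4* R192H islets fell to 0.412 of the wildtype level, a log2 fold change of -1.28 ± 0.19 (SE; adjusted p = 0.00588, edgeR, n = 3 against 3). It was the only one of the 9 genes called in this comparison, in which 2.28% of all tested genes were called and 0.82% were called lower.

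Among SCD-fed mice the genotype difference in *Slc2a2* was 0.10 on the log2 scale, with a 95% interval from -0.31 to 0.51. The genotype effect on the HFD minus that on the SCD was -1.38 ± 0.27 (SE) and had an adjusted p of 0.0631 in edgeR's interaction test, in which 0.131% of all genes were called, so it did not pass the threshold. It passed, at an adjusted p of 0.0300, when HFD-fed wildtype mouse 2, the lowest of its group, was left out. In *Pax4* R192H mice, HFD against SCD gave -1.34 ± 0.19 (adjusted p = 0.000766, edgeR), in a comparison that shares the HFD-fed *Pax4* R192H mice with the genotype comparison. With the level of acinar markers as a covariate it was -1.06 with an adjusted p of 0.205 and was not called. In wildtype mice HFD against SCD gave 0.04 (95% interval -0.37 to 0.45).

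Acinar markers, and some duct and α cell markers, moved with these groups. The summed level of 27 acinar genes, which encode digestive enzymes of the exocrine pancreas, was 106127, 39731 and 40142 CPM in the HFD-fed *Pax4* R192H group and from 17861 to 27108 CPM in its wildtype counterpart. All 27 were higher in *Pax4* R192H mice, 25 of them without overlap (as 13% of all tested genes were). Of the 27, 8 were called, beside 1.46% of all tested genes called higher, and none was at 0 in any mouse. Mouse 1 had both the highest acinar sum and the lowest *Slc2a2* level, and mice 2 and 3, which had like acinar sums, had 243 and 319 CPM of *Slc2a2*. With the acinar level as a covariate the log2 fold change of *Slc2a2* on the HFD was -1.05, with an adjusted p of 0.522, and in that fit edgeR called no gene (1382 had an unadjusted p below 0.05). The covariate rests on the mean log2 CPM of the acinar genes. It was 7.98 to 9.30 in HFD-fed *Pax4* R192H mice and 6.53 to 7.44 in the other groups of the first table. Fits with it can therefore barely separate the acinar level from this group. Of 10 tested duct markers 8 were higher in *Pax4* R192H mice on the HFD, 6 of them without overlap (as 13% of all tested genes were), with a median log2 fold change of 0.46, and *Krt18*, a keratin, was called (0.63, adjusted p = 0.0414, edgeR). The summed level of the 11 duct markers was 477 to 493 CPM against 307 to 366 CPM in wildtype mice, and from 0 to 1 of them was at 0 in each mouse of either group. Of 8 α cell markers 4 were higher and 4 lower, and *Gc* (1.52, adjusted p = 0.0414) and *Ttr* (1.16, adjusted p = 0.00731), which encode carrier proteins also made in liver, were called higher, while *Gcg*, the glucagon gene, differed by -0.06. The 8 summed to 5813 to 7942 CPM against 5056 to 8051 CPM in wildtype mice, and none was at 0. The part of these cell types in the result was not tested further. Fewer β cells and less *Slc2a2* RNA per β cell cannot be told apart in bulk islets.

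Other β cell genes gave a measure of β cell RNA beside *Slc2a2*. Of the 18 β cell markers, 12 were lower and 6 higher in *Pax4* R192H mice on the HFD, with a median log2 fold change of -0.17 against -0.01 over all tested genes. The called ones were *Glp1r*, the receptor of the incretin GLP-1, at -0.69 and *Slc30a8*, the zinc transporter of insulin granules, at -0.61. Some abundant markers had higher values instead, and the summed level of the 18 was 100899 to 112281 CPM in HFD-fed *Pax4* R192H mice against 66699 to 95048 CPM in HFD-fed wildtype mice, without overlap. Their mean log2 CPM, in which each gene weighs the same, was lower without overlap, at 8.08 to 8.23 against 8.27 to 8.42. *Ins2*, an insulin gene, differed by 0.38 with overlap, and *Iapp*, which encodes amylin, and *Pcsk1*, a prohormone convertase, by 0.50 and 0.48 without overlap, none of them called. Lower without overlap were 6 markers, the called pair and, not called, *Mafa*, *Nkx6-1*, *Ucn3* and *Kcnj11*, beside 9.89% of all tested genes lower without overlap and 0.82% called lower. *Mafa*, a transcription factor of mature β cells, had the lowest fold change of the list, at 167 ± 38 CPM in wildtype and 72.9 ± 5.5 CPM in *Pax4* R192H mice (-1.20, adjusted p = 0.0823, edgeR; SD, n = 3 each). *G6pc2* (ENSMUSG00000005232, chromosome 2, 69211073 to 69227841, plus strand), itself one of these markers, was at 1394, 2171 and 1609 CPM in HFD-fed wildtype mice and at 1657, 2471 and 2331 CPM in HFD-fed *Pax4* R192H mice. The ranges overlapped, and the log2 fold change of 0.32 (95% interval -0.12 to 0.76) had an adjusted p of 0.488 in edgeR.

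*Txnip* (ENSMUSG00000038393, chromosome 3, 96557957 to 96561883, plus strand) was higher in each HFD-fed *Pax4* R192H mouse than in any other mouse of the first table. SCD-fed wildtype mice had 271, 303 and 308 CPM, SCD-fed *Pax4* R192H mice 272, 325 and 311 CPM, and HFD-fed wildtype mice 254, 283 and 290 CPM. HFD-fed *Pax4* R192H mice had 418, 408 and 351 CPM. The log2 fold change on the HFD was 0.51 ± 0.13 (SE), 1.42-fold, with an adjusted p of 0.0539 in edgeR, which misses the threshold. DESeq2 gave 0.51 with an adjusted p of 0.00145, which passes it. The groups did not overlap for *Txnip*, *Arrdc4* and *Slc2a2*, 3 of the 9 genes, as for 22.9% of all tested genes in this comparison.

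*Arrdc4* (ENSMUSG00000042659, chromosome 7, 68736995 to 68749241, minus strand) was likewise highest in HFD-fed *Pax4* R192H mice, at a lower level, while the order of the other 3 groups differed from that of *Txnip*. SCD-fed wildtype mice had 7.04, 7.99 and 8.57 CPM, SCD-fed *Pax4* R192H mice 9.41, 9.92 and 9.54 CPM, and HFD-fed wildtype mice 10.34, 10.03 and 10.24 CPM. HFD-fed *Pax4* R192H mice had 14.74, 15.06 and 13.02 CPM. On the HFD the groups did not overlap, and the log2 fold change was 0.48 ± 0.13 (SE; adjusted p = 0.0678, edgeR). On the SCD *Arrdc4* was the only one of the 9 genes whose genotypes did not overlap, as for 7.83% of tested genes, at 0.29 (95% interval 0.01 to 0.57) with an adjusted p of 1 in edgeR. No gene was called on the SCD (0% of 19137 tested, with 629 at an unadjusted p below 0.05 in edgeR and 19 called by DESeq2). HFD against SCD raised *Arrdc4* in *Pax4* R192H mice by 0.57 ± 0.13 (adjusted p = 0.00954, edgeR), which was called without any one of the 6 mice but not with the acinar covariate (0.43, adjusted p = 0.418). In wildtype mice the same comparison gave 0.37 ± 0.13 with an adjusted p of 0.198, where the groups did not overlap.

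**Figure D2:**
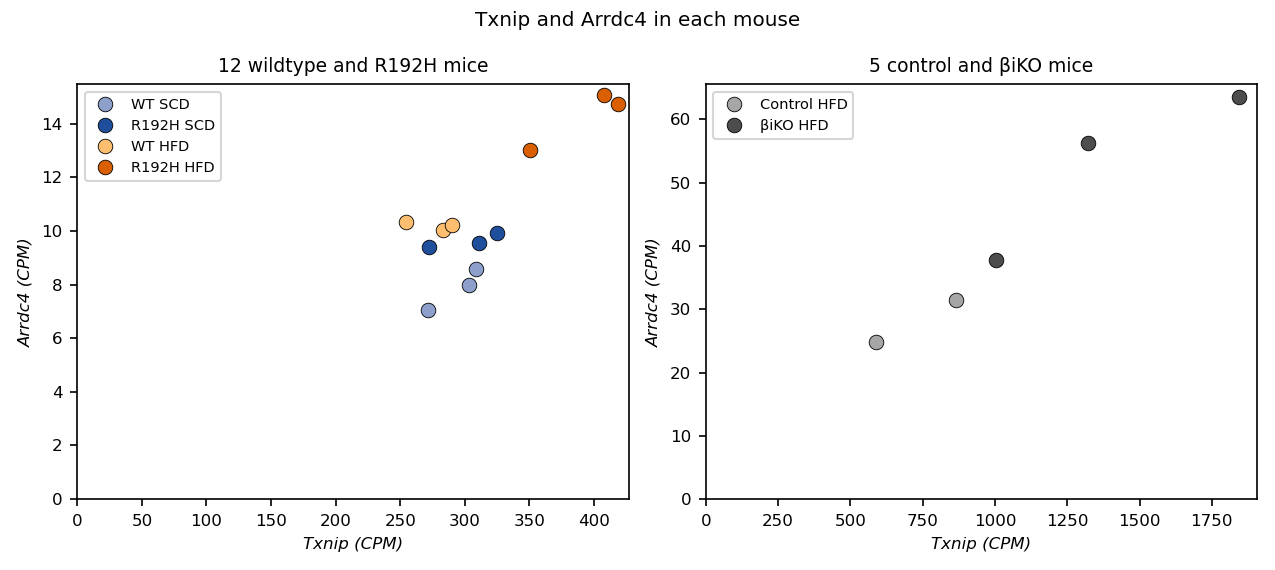
*Txnip* against *Arrdc4* in CPM (linear axes from 0) for each of the 12 mice of the first table (left) and the 5 mice of the second (right), coloured by group. The 3 HFD-fed *Pax4* R192H mice lie apart at the upper right of the left panel, and in the right panel both genes put the 5 mice in the same order.

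Across the 12 mice, log2 CPM of *Arrdc4* and *Txnip* correlated with Pearson's r of 0.78, which placed *Arrdc4* at rank 89 of 9344 genes with a mean of at least 5 CPM. After group means were taken out r was 0.71. The mice share their groups, so this is a description, with no test. The 5 genes whose pattern was most like that of *Txnip* were *Inpp5f* (r = 0.90), *Prdx4*, *Pon3*, *Clu* and *Aass* (each 0.89), but over the 5 mice of the second table r with *Txnip* was 0.07, 0.16, 0.41, 0.31 and 0.81 in that order, and 0.98 for *Arrdc4*. For *Slc2a2* the most alike were *Trpm5*, which encodes a cation channel of β cells (r = 0.98), *Sgpl1* (0.97), *Grk3*, *Jade3* and *Gad1* (each 0.96). Over the other 5 mice their r was 0.97, 0.94, 0.90, 0.89 and 0.95 in that order. *Slc2a2* and *Txnip* ran opposite ways, with r of -0.86 over 12 mice and -0.38 within groups.

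*Mlxipl* (ENSMUSG00000005373, chromosome 5, 135089890 to 135138382, plus strand) was lowest in HFD-fed *Pax4* R192H mice. SCD-fed wildtype mice had 44.0, 47.5 and 38.6 CPM, SCD-fed *Pax4* R192H mice 38.5, 40.2 and 45.0 CPM, and HFD-fed wildtype mice 48.8, 32.9 and 37.1 CPM. HFD-fed *Pax4* R192H mice had 33.4, 29.3 and 21.9 CPM, which overlapped with HFD-fed wildtype mice only between 32.9 and 33.4 CPM. The genotype difference on the HFD was -0.49 ± 0.17 on the log2 scale (SE), with an adjusted p of 0.170 in edgeR. HFD against SCD lowered *Mlxipl* in *Pax4* R192H mice by a log2 fold change of -0.55 ± 0.17 (adjusted p = 0.0448, edgeR). That call was lost when any mouse but HFD-fed mouse 1 was left out of the 6, with adjusted p-values between 0.0774 and 0.181, and with the acinar covariate (adjusted p = 0.351). Gene-level counts cannot separate the isoforms ChREBPα and ChREBPβ, so they do not measure the shorter, glucose-induced form.

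*Pklr* (ENSMUSG00000041237, chromosome 3, 89136142 to 89146784, plus strand) overlapped between genotypes on each diet. On the SCD it was at 2.695, 2.172 and 3.018 CPM in wildtype and at 4.856, 2.948 and 3.283 CPM in *Pax4* R192H mice. On the HFD it was at 3.599, 3.480 and 2.917 CPM in wildtype and at 3.185, 2.266 and 1.912 CPM in *Pax4* R192H mice. All 4 groups overlapped with at least 1 other, and the genotype differences were 0.49 on the SCD and -0.44 on the HFD on the log2 scale, neither called. The difference between them, -0.93 ± 0.37 (SE), had an unadjusted p of 0.0260 and an adjusted p of 0.361 in edgeR.

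The high-affinity transporters and hexokinase were low in every group. *Slc2a1* (ENSMUSG00000028645, chromosome 4, 119108711 to 119137983, plus strand) lay between 2.44 and 3.74 CPM in the 6 SCD-fed mice. On the HFD it was at 2.85, 2.15 and 1.82 CPM in wildtype and 1.40, 1.64 and 2.07 CPM in *Pax4* R192H mice, a log2 fold change of -0.42 (95% interval -0.97 to 0.14). *Slc2a3* (ENSMUSG00000003153, chromosome 6, 122727809 to 122801640, minus strand) lay between 1.93 and 4.01 CPM in all 12 mice, with a genotype difference of 0.02 on the HFD (95% interval -0.57 to 0.62). No gain of either transporter was detected beside the fall of *Slc2a2*, and the 95% intervals reached up to 0.14 and 0.62.

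*Hk2* (ENSMUSG00000000628, chromosome 6, 82725025 to 82774454, minus strand) had between 4 and 53 counts per mouse in the first table, the fewest of the 9 genes. It was at 0.54, 1.42 and 0.84 CPM in SCD-fed wildtype and 0.84, 0.79 and 0.57 CPM in the SCD-fed *Pax4* R192H group. On the HFD wildtype mice had 0.37, 0.31 and 0.16 CPM and *Pax4* R192H mice 0.47, 0.25 and 0.12 CPM. Every HFD-fed mouse was below every SCD-fed mouse of the table. Stromal markers differed in the same direction, with 9 of 9 lower on the HFD in wildtype mice (median log2 fold change -1.74) and 7 of 9 in *Pax4* R192H mice (-0.90), none called. The SCD-fed wildtype mouse with 1.42 CPM of *Hk2* also had the highest stromal sum, at 411 CPM against 108 to 247 CPM in the other 11 mice, and no stromal marker was at 0. Of 13 macrophage markers 12 were lower on the HFD in wildtype mice (sums of 79.2 to 87.9 CPM against 109 to 170 CPM), 2 of them called, and 8 in *Pax4* R192H mice (69.3 to 95.8 CPM against 75.8 to 79.3 CPM), none called. The part of these cells in the *Hk2* values was not tested. The log2 fold change of HFD against SCD was -1.74 ± 0.58 in wildtype (adjusted p = 0.183, edgeR) and -1.39 ± 0.59 in *Pax4* R192H mice (adjusted p = 0.121), and neither was called. Genotypes differed by 0.00 on the HFD, with a wide 95% interval from -1.352 to 1.356, which includes a 2-fold difference in either direction. The 5 genes most like *Hk2* over the 12 mice included *Gm38070* (r = 0.92), *Hnrnpu* (0.92), *Malt1* (0.92) and *Gvin1* (0.91), and among these 4 over the other 5 mice r ran from -0.61 for *Gm38070* to 0.74 for *Malt1*.

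Of the 9 genes, 3 were called in HFD against SCD in *Pax4* R192H mice (*Slc2a2* and *Mlxipl* lower, *Arrdc4* higher) beside 15.7% of all tested genes, and 6 did not overlap, beside 41.8%. In wildtype mice none was called, beside 0.371% of all genes, and *Hk2* and *Arrdc4* did not overlap, beside 17.9%. *Txnip* in *Pax4* R192H mice was higher on the HFD by 0.37 ± 0.13 without overlap (adjusted p = 0.0561, edgeR), and *Slc2a1* differed by -0.65 ± 0.26 without overlap (adjusted p = 0.0972).

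**Figure D3:**
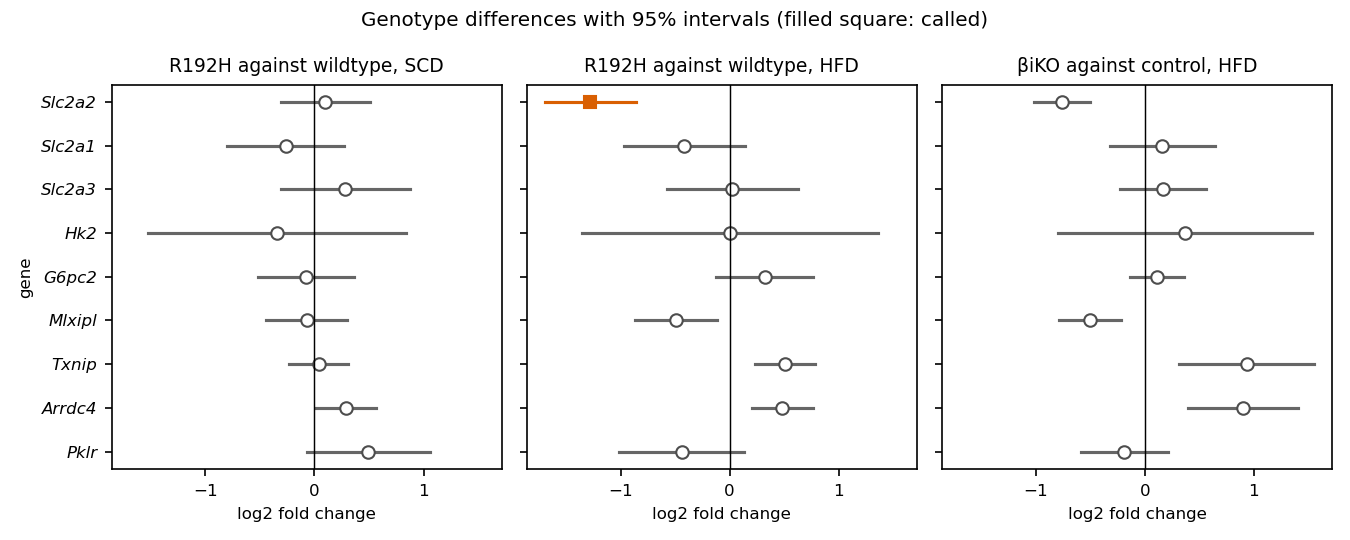
Log2 fold change (horizontal axes, points) with its 95% interval (lines) for each gene in *Pax4* R192H against wildtype mice on the SCD and on the HFD and in *Pax4* βiKO against control mice on the HFD; filled squares are called genes. *Slc2a2* in the HFD-fed *Pax4* R192H mice, at -1.28, is the one called value. The *Txnip* and *Arrdc4* intervals lie above 0 in both HFD panels, and that of *Arrdc4* does so on the SCD too. The *Slc2a2* and *Mlxipl* intervals lie below 0 in both HFD panels. Intervals are not adjusted for the number of genes tested.

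In *Pax4* βiKO islets none of the 9 genes was called, beside 0.0893% of all tested genes (18 genes, from 2 control mice against 3), and 5 of the 9 did not overlap between the groups, beside 32.6% of all. The largest differences were in *Txnip*, *Arrdc4* and *Slc2a2*. *Slc2a2* was at 1244 and 1182 CPM in the control mice and at 651, 784 and 714 CPM in the *Pax4* βiKO mice, so that the highest *Pax4* βiKO mouse was well below the lower control. The log2 fold change was -0.76 ± 0.11 (SE), or 0.591 of the control level, with an unadjusted p of 0.000160 and an adjusted p of 0.0923 in edgeR. DESeq2 called it, at -0.77.

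*Txnip* was at 865 and 590 CPM in control mice and at 1005, 1844 and 1323 CPM in *Pax4* βiKO mice, a log2 fold change of 0.94 ± 0.27 (SE), or 1.91-fold, with an adjusted p of 0.264 in edgeR. Without *Pax4* βiKO mouse 2, the highest, the log2 fold change was 0.67, and without control mouse 2, the lowest, it was 0.68. *Arrdc4* was at 31.5 and 24.8 CPM in control mice and at 37.8, 63.6 and 56.2 CPM in *Pax4* βiKO mice, a log2 fold change of 0.90 ± 0.22 (adjusted p = 0.218, edgeR). Both genes put the 5 mice in the same order, from control mouse 2 through control mouse 1 and *Pax4* βiKO mice 1 and 3 to *Pax4* βiKO mouse 2. Left out singly, control mouse 1 raised the adjusted p of both to 0.865.

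*Mlxipl* was at 90.7 and 87.8 CPM in control mice and at 71.3, 64.6 and 52.9 CPM in *Pax4* βiKO mice, a log2 fold change of -0.50 ± 0.12 (adjusted p = 0.223, edgeR) without overlap. *G6pc2*, at 5816 and 6108 CPM against 6188, 6672 and 6512 CPM, differed by 0.12 without overlap (adjusted p = 0.691). The other 4 genes overlapped. *Pklr* was at 8.03 and 6.80 CPM against 7.21, 6.38 and 5.95 CPM (-0.19, 95% interval -0.58 to 0.21). *Slc2a1*, *Slc2a3* and *Hk2* differed by 0.16, 0.17 and 0.37 on the log2 scale, with 95% intervals that included 0.

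Acinar sums in this table were 114727 and 26646 CPM in control mice and 90688, 18278 and 24544 CPM in *Pax4* βiKO mice, and 25 of the 27 acinar genes were lower in *Pax4* βiKO mice, none called. The control mouse with 114727 CPM of acinar RNA had the higher *Slc2a2* level of the pair. Among *Pax4* βiKO mice, the one with 90688 CPM had the lowest *Slc2a2*, *Txnip* and *Arrdc4* levels and the highest *Mlxipl* level. With the acinar covariate the log2 fold changes were -0.78 for *Slc2a2*, 0.87 for *Txnip*, 0.82 for *Arrdc4* and -0.48 for *Mlxipl*. All 10 endothelial markers were higher in *Pax4* βiKO mice, none called, with sums between 369 and 436 CPM against 348 and 350 CPM. Of the 18 β cell markers 13 were lower, 10 of them without overlap (as 16.7% of all tested genes were), with a mean log2 CPM of 8.72 to 8.79 against 8.86 to 8.95, while their summed level was higher, at 135265 to 140457 CPM against 123707 to 134820 CPM. Of the 8 α cell markers 5 were higher, all without overlap (as 15.9% of all tested genes were). The other 3 were lower, 2 of them without overlap (as 16.7% of all tested genes were). The 8 summed to 17432 to 18182 CPM against 12963 to 16629 CPM. The duct markers, 5 higher and 5 lower, summed to 741 to 812 CPM against 641 to 643 CPM. Of 9 stromal markers 8 were higher, with sums of 405 and 417 CPM in *Pax4* βiKO mice 2 and 3, which had the highest *Txnip* and *Arrdc4* levels, and 280 to 297 CPM in the other 3 mice. Of 13 macrophage markers 10 were higher (165 to 256 CPM against 161 to 183 CPM), and all 5 erythrocyte markers were (112 to 530 CPM against 142 to 214 CPM, median log2 fold change 0.67). None of these was called, and the part of these cell types in the values of the 9 genes was not tested.

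Levels were set in order within each group as CPM per kb of exon, from the GENCODE M21 gene models. The length was that of all annotated exons of a gene merged (5755 bases for *Slc2a2* and 3123 for *Txnip*). It can exceed that of the transcript expressed, and the order of genes depends on it. *G6pc2* was highest in all 6 groups, at 933 ± 161 CPM per kb in SCD-fed wildtype mice (SD, n = 3), and *Hk2* was lowest, at 0.157 ± 0.075 CPM per kb. *Slc2a2* and *Txnip* came next to *G6pc2* in each group, and their order differed. In SCD-fed wildtype mice *Slc2a2* was at 106 and *Txnip* at 94.2 CPM per kb, with overlapping ranges, and in HFD-fed wildtype mice at 109 and 88.4 CPM per kb, also overlapping. In SCD-fed *Pax4* R192H mice *Slc2a2* was above *Txnip* without overlap, at 114 against 96.9 CPM per kb. In HFD-fed *Pax4* R192H mice *Txnip*, at 126 ± 11.7 CPM per kb, was above *Slc2a2*, at 44.9 ± 9.6 CPM per kb, without overlap. In the second table the ranges overlapped in control mice (233 for *Txnip* and 211 for *Slc2a2*) and did not in *Pax4* βiKO mice (445 against 124 CPM per kb). *Mlxipl* and then *Arrdc4* followed in all groups but *Pax4* βiKO, where *Arrdc4*, at 13.01 CPM per kb, and *Mlxipl*, at 11.4 CPM per kb, overlapped. *Pklr*, *Slc2a1* and *Slc2a3* came next, between 0.345 and 2.29 CPM per kb. Among these, *Pklr* and *Slc2a1* overlapped in SCD-fed wildtype mice, and *Slc2a1* and *Slc2a3* overlapped in HFD-fed *Pax4* R192H and in control mice.

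**Figure D4:**
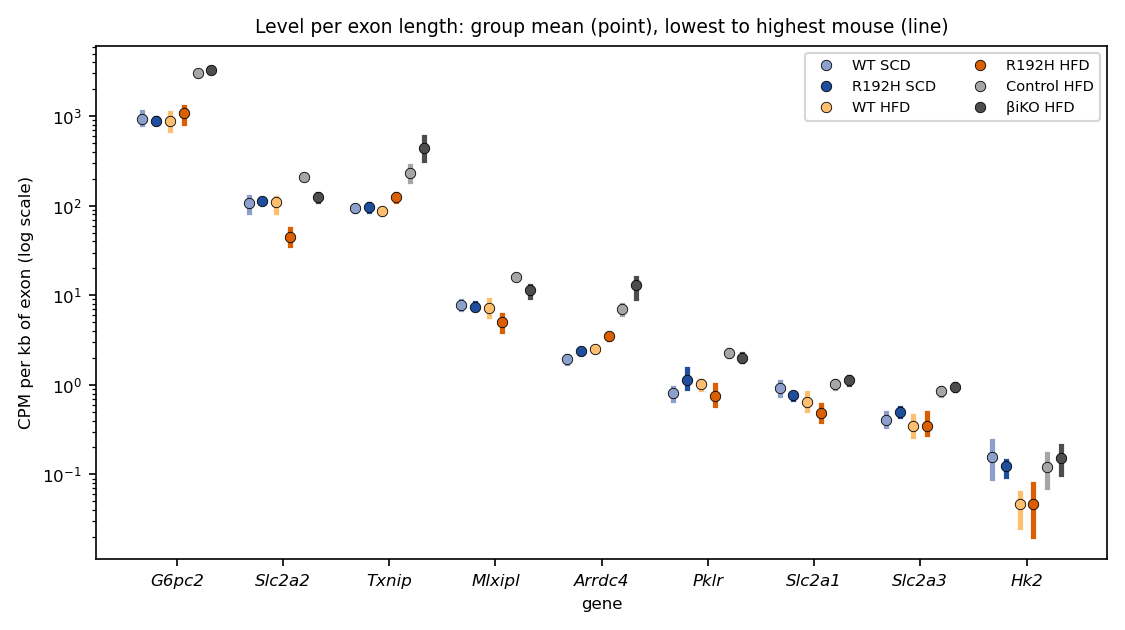
Mean level of each gene per kb of exon (vertical axis, log scale) in each of the 6 groups (coloured points), with lines from the lowest to the highest mouse; control and *Pax4* βiKO mice were normalized in a table of their own. *Slc2a2* lies below *Txnip* without overlap in HFD-fed *Pax4* R192H mice (44.9 against 126) and in *Pax4* βiKO mice (124 against 445).

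Lists of related genes were counted to place the 9 genes among others of the same pathways. In HFD against SCD in *Pax4* R192H mice all 27 acinar markers were higher, with a median log2 fold change of 1.84. Of these 25 were called, beside 9.75% of all tested genes called higher. Of 10 tested duct markers 7 were higher and 3 lower, 3 called higher. With the acinar covariate 35 genes were called there, in place of 2996. The part of acinar cells in the list calls below was not tested. Of 21 genes of glucose uptake and phosphorylation, which include *Slc2a2*, 19 were tested in the first table, and *Slc2a2* was the one called in *Pax4* R192H against wildtype on the HFD. Their median log2 fold change there was 0.02, against -0.01 over all tested genes. In HFD against SCD in *Pax4* R192H mice 2 rose, *Slc2a5*, a fructose transporter (0.52, adjusted p = 0.0337), and *G6pc3*, the widely expressed glucose-6-phosphatase (0.58, adjusted p = 0.0346), and *Slc2a2* alone fell by this rule, so that 3 of 19 were called beside 15.7% of all tested genes. Of the 18 tested in the second table none was called.

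Of 21 ChREBP and MondoA targets, which include *Txnip*, *Arrdc4* and *Pklr*, 20 were tested. On the HFD 12 were higher and 8 lower in *Pax4* R192H mice, none called, with a median of 0.15 against -0.01 over all genes, and in *Pax4* βiKO mice 10 were higher and 10 lower, none called, with a median of -0.01 against 0.01. In HFD against SCD in *Pax4* R192H mice 3 rose, *Tkfc*, a kinase of fructose breakdown (1.05, adjusted p = 0.00720), *Rgs16*, a regulator of G protein signalling (0.69, adjusted p = 0.0156), and *Arrdc4*, and *Acaca*, which encodes acetyl-CoA carboxylase of fatty acid synthesis, fell (-0.62, adjusted p = 0.0114), so that 4 of 20 were called beside 15.7% of all tested genes. The acinar difference given above belongs to this comparison too.

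Of the other factors that pair with or resemble ChREBP, *Mlx*, its obligate partner, rose in HFD against SCD in *Pax4* R192H mice (0.68, adjusted p = 0.0260), where acinar markers were higher too, as given above. *Mlxip*, which encodes MondoA, was not called in any comparison. Of the 6 α-arrestin genes 5 were tested, and *Arrdc4* was the one called, in HFD against SCD in *Pax4* R192H mice (15.7% of all tested genes were called there). In *Pax4* βiKO mice all 5 were higher than in controls, none called, with a median of 0.47. *Arrdc3*, an α-arrestin with a role in adrenergic receptor trafficking, was at 99.8 ± 3.6 CPM against 71.8 ± 5.3 CPM there (0.47, adjusted p = 0.140).

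Of 24 glucose metabolism and other genes that respond to low oxygen, *Slc2a1*, *Slc2a3* and *Hk2* included, none was called in either genotype comparison of the first table, and the medians were 0.02 on the SCD and 0.01 on the HFD. In HFD against SCD in *Pax4* R192H mice the glycolytic genes *Pgk1* (0.86, adjusted p = 0.00699), *Gapdh* (0.61, adjusted p = 0.00799) and *Pgam1* (0.56, adjusted p = 0.0189) rose and *Aldoc*, a brain-type aldolase, fell (-1.13, adjusted p = 0.0182), so that 4 of 24 were called beside 15.7% of all tested genes. Acinar markers were higher in the same comparison, as given above. In *Pax4* βiKO mice 17 of 23 tested were higher and 6 lower, none called.

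**Figure D5:**
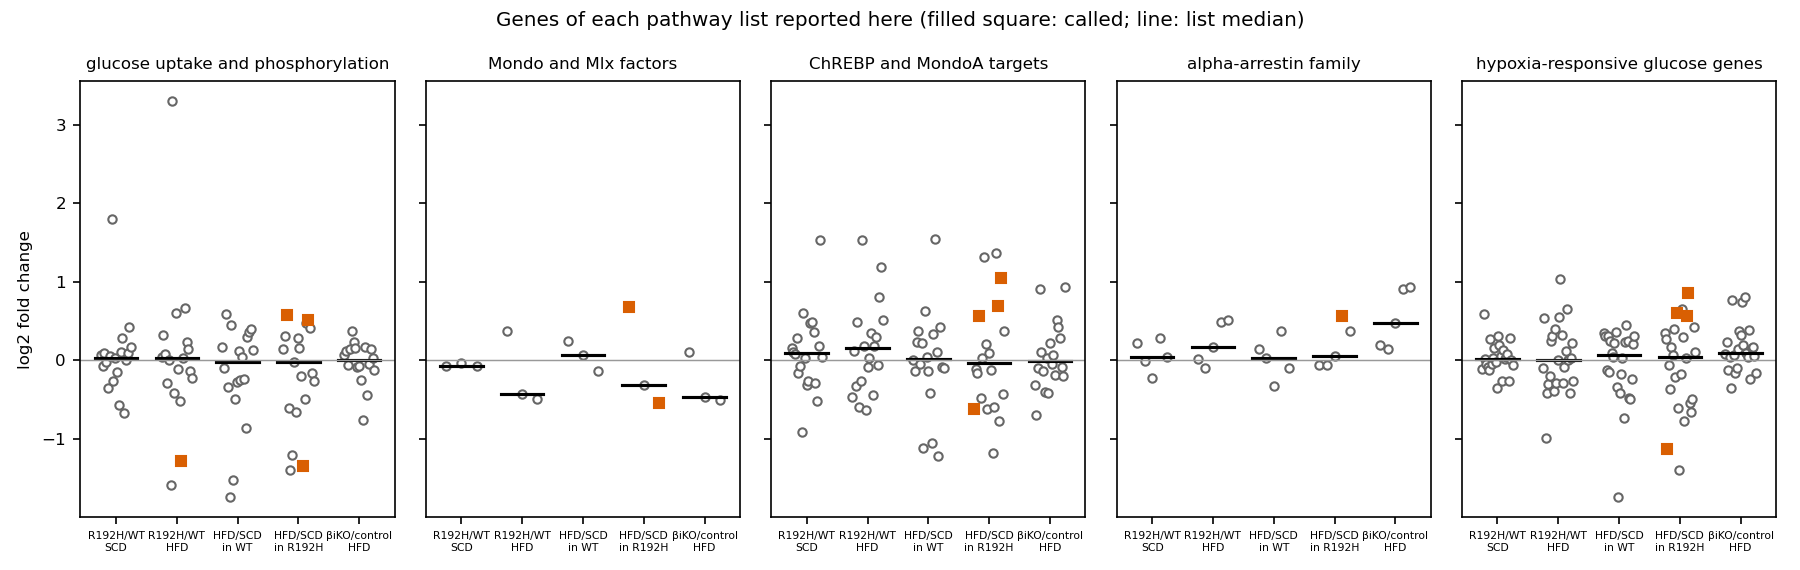
Log2 fold change (vertical axis) of the tested genes reported here (points) of 5 pathway lists in 5 comparisons, with the median of all tested genes of the list (black line) and called genes as filled squares. The medians lie near 0 except among the Mondo and Mlx factors and, at 0.47 in *Pax4* βiKO mice, the α-arrestins.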

How the data were processed

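Islet bulk RNA-seq of 17 mice was used, and the single-cell data were not analysed here. The deposited expected counts per gene were made by the authors, who aligned paired-end reads of stranded total RNA libraries to mm10 (STAR v2.7.1), quantified transcripts (RSEM v1.3.3) and summed them with tximport. They are not scaled for depth and were rounded to whole numbers here. The authors' annotation release is not given in the sources used here. Gene models and symbols came from GENCODE M21 (GRCm38), which matched 65.8% and 66.7% of the identifiers, and promoter windows from RefSeq.

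Each table was normalized by TMM, filtered with filterByExpr (minimum count 10) and fitted with 1 coefficient per group, and edgeR's quasi-likelihood F-test was applied, with p-values adjusted over all tested genes (R v4.3.3, edgeR v4.0.16). Log2 CPM had a prior count of 2. A count of 3 corresponds to between 0.0724 and 0.126 CPM, which covers counting error only.

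The members and lists were chosen with earlier results of these data known. The genes named are the 9, called genes of each list, the 5 genes most like *Slc2a2*, *Txnip* and *Hk2*, and genes that split a list. Some listed genes are not reported here singly, though list counts and medians include them. Other settings tried were RLE scaling, 2 other filters, the replicate number as a block, an acinar covariate, removal of the pair of dominant rows, fits of the compared groups alone, DESeq2 (v1.42.0) and omission of each mouse. Scripts were tested on simulated data.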

Additional observations from a re-analysis of the deposited data

How the results depend on the processing

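Counts of called genes moved by over 1.5 times under several settings, in the order *Pax4* R192H against wildtype on the SCD, on the HFD, the interaction, HFD against SCD in wildtype and in *Pax4* R192H mice, and *Pax4* βiKO against control (0, 437, 25, 71, 2996 and 18). Without a filter the first 4 were 261, 1279, 708 and 924 and the last 697, and with DESeq2 they were 19, 994, 343 and 584 and the last 247. With at least 10 counts in every sample the interaction gave 80 and HFD in wildtype 115. Fits of the compared groups alone gave 1 on the SCD and 1 for HFD in wildtype. With the acinar covariate the HFD comparison and the interaction gave 0 (1382 and 1245 genes at an unadjusted p below 0.05, edgeR), HFD in wildtype 36 and in *Pax4* R192H mice 35. That covariate was higher in each HFD-fed *Pax4* R192H mouse than in the rest of the first table, so it is hard to separate from the group. Leaving out each mouse gave 93 to 498 on the HFD, 0 to 101 for the interaction, 5 to 125 and 1706 to 2248 for HFD in each genotype and 2 to 28 for *Pax4* βiKO. The causes were not tested.

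Same-numbered mice did not deviate together (r from -0.296 to 0.193), so the numbers were not taken as pairs. A replicate block gave 147 genes on the HFD, 0 for the interaction (1787 at an unadjusted p below 0.05, edgeR), 22 for HFD in wildtype and 88 for *Pax4* βiKO. With the block *Mlxipl* for HFD in *Pax4* R192H mice was no longer called (adjusted p = 0.0534) and *Slc2a2* in *Pax4* βiKO mice was (adjusted p = 0.0262).

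*Slc2a2* on the HFD was called in 7 of 8 other settings and without each of the 6 mice (adjusted p 0.00452 to 0.0428), and lost with the acinar covariate. Its interaction was called without a filter, with at least 10 counts in every sample (adjusted p = 0.0423) and by DESeq2. *Txnip* on the HFD was called with at least 10 counts in every sample (adjusted p = 0.0367) and DESeq2. In *Pax4* βiKO mice *Slc2a2*, *Txnip* and *Arrdc4* were called without a filter, *Slc2a2*, *Arrdc4* and *Mlxipl* by DESeq2, and none with a mouse left out. In the wildtype and *Pax4* R192H table *Hk2* was dropped by the filter of 10 counts in every sample.

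Signs turned only for differences that were not called. *Hk2* on the HFD was -0.017 with the block, -0.91 with the acinar covariate, -0.012 without the dominant rows, -0.00069 with DESeq2, -0.014 in the groups alone and -0.59 to 0.37 with a mouse left out. With the acinar covariate the interaction was 0.080 for *Slc2a3* and -0.63 for *Hk2*. With a mouse left out, values on the SCD were -0.032 to 0.26 for *Slc2a2*, -0.15 to 0.076 for *G6pc2*, -0.61 to 0.083 for *Hk2* and -0.015 to 0.12 for *Txnip*, the interaction was -0.32 to 0.045 for *Slc2a1* and -0.24 to 0.72 for *Hk2*, HFD in wildtype was -0.10 to 0.19 for *Slc2a2* and -0.29 to 0.059 for *G6pc2*, *Slc2a3* on the HFD was -0.29 to 0.25, and *Hk2* in *Pax4* βiKO mice was -0.12 to 1.09.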
